A study of Mus musculus with 3 samples.

Results

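Carbonic anhydrases are zinc enzymes that turn carbon dioxide and water into bicarbonate and a proton, and back. In red blood cells they let blood carry carbon dioxide as bicarbonate; in the kidney, cytosolic and membrane-bound forms together serve the recovery of bicarbonate in the proximal tubule and the secretion of acid in the collecting duct. The family also holds carbonic anhydrase-related proteins, which keep the fold and lack the enzyme activity. The genes described here were those of a list of 10 carbonic anhydrase symbols (Car1, Car2, Car3, Car4, Car8, Car9, Car11, Car12, Car13 and Car14) for which an array feature carried exactly 1 gene symbol and had a log2 ratio on all 3 arrays. Of the 10, 9 met this rule, among 14433 named genes with such values. Each of the 9 was measured by 1 feature, so no averaging over features entered their values. Car9, a membrane enzyme known for its response to low oxygen, matched no feature by symbol and was not analysed here.

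The RNA came from kidneys of CD1 mouse embryos, microdissected and pooled over both sexes: metanephroi, the rudiments of the permanent kidney, of 11.5 days post coitum (dpc) and fetal kidneys of 13.5 dpc. No allele or treatment is named for either age. Amplified RNA of both ages was hybridised together on each of 3 arrays of the Compugen mouse oligonucleotide set. The labels give the dyes of arrays 1 and 2 as red/green, and array 3 was the swap, green/red. Each value is therefore a log2 ratio, which is a difference between the ages and not a level. It cannot be set against the marker genes that would check a tissue by their level, and the strength of a spot behind a ratio is unknown.

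Positive ratios are read as higher at 11.5 dpc. This direction is likely, since the labels name 11.5 before 13.5 and put 11.5 dpc in the first channel, but it is not settled, and every direction below turns if the reading is wrong. Over the 20386 features with a value on all arrays, which are not independent replicates, array 3 correlated with array 1 at a Pearson r of 0.11 and with array 2 at -0.12, while arrays 1 and 2 correlated at 0.27. Array 3 was used as deposited. The labels give it the opposite dye order. The means of the 9 genes and the medians of the gene lists are therefore also given with its sign turned. For other named genes the turned mean is given where it changed sign. A named gene without a turned mean kept its sign, but its mean could still shrink: that of Wnt4 went from -1.02 to -0.080, that of Dpep1 from 0.66 to 0.49. Log2 ratios were widest on array 3, with standard deviations of 0.56, 0.79 and 0.97 on arrays 1, 2 and 3. The labels do not say whether the arrays had RNA extracts of their own, so an SD or p-value here reflects how far these hybridisations differ, possibly for technical reasons alone.

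The carbonic anhydrase genes did not move as a family. Car2, the fast cytosolic enzyme of red cells and kidney epithelium, had a mean of 2.70 ± 0.18 on the log2 scale (SD over n = 3 arrays), a ratio of 6.51-fold. Car4, the enzyme tethered to the outer cell surface in the proximal tubule, lay at the other end with -2.13 ± 1.56, a ratio of 4.38-fold lower at 11.5 dpc. Of the 9 genes, 3 were positive on every array (Car2, Car8 and Car14), 3 were negative on every array (Car4, Car11 and Car13), and 3 differed in sign between arrays (Car1, Car3 and Car12). Over all 19015 rows, 16.8% were positive and 18.5% negative on every array, 35.3% together. The median over the 9 genes was -0.069, against -0.0084 over all rows. The genes were selected on these same log2 ratios, which were known when the list was drawn up, so the counts and values are a description and no p-value is given for any of the 9.

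**Figure D1:**
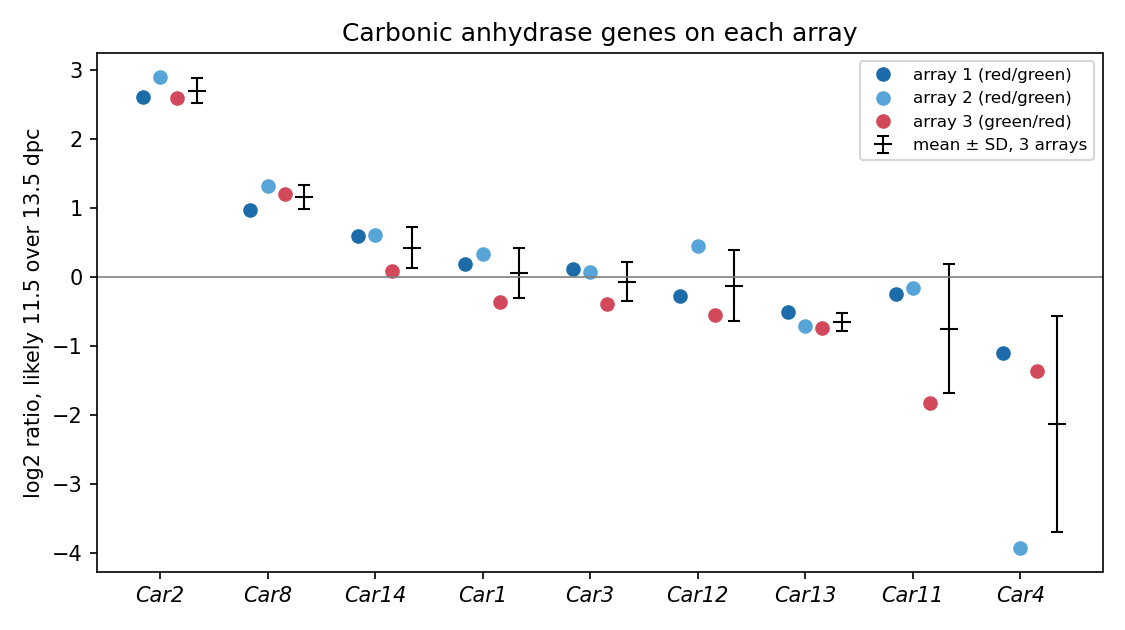
Log2 ratio (likely 11.5 over 13.5 dpc, vertical axis) of the 9 carbonic anhydrase genes on each of the 3 arrays, with array 3, of the opposite dye order, in red; the black mark and bar give the mean and SD over the arrays. The 3 points of Car2 lie between 2.60 and 2.91, those of Car4 between -3.93 and -1.10, and those of Car1, Car3 and Car12 on both sides of 0.

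Among the cytosolic enzymes, Car2 had log2 ratios of 2.61, 2.91 and 2.60 on arrays 1, 2 and 3. All 3 arrays thus gave a ratio of over 6-fold, from 6.05 to 7.51, and the spread was below the median SD of all rows, 0.34. By its mean Car2 was number 4 of the 19015 rows from the top. By single arrays it was number 15 on array 1, 18 on array 2 and 524 on array 3, where the same log2 ratio stood among more extreme values. Without 1 array the mean of Car2 lay between 2.60 and 2.76. With array 3 turned it was 0.97, and Car2 then had no common sign, since array 3 was opposite to arrays 1 and 2. In tissue RNA, fewer cells of a type and less RNA per cell cannot be told apart.

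Car1, the other abundant carbonic anhydrase of red cells, had 0.20, 0.34 and -0.35 on arrays 1, 2 and 3, a mean of 0.061 ± 0.37. Arrays 1 and 2 were above 0 and array 3 below it. Without array 1 or array 2 its mean turned to -0.0072 or -0.079, and without array 3 it was 0.27. With array 3 turned it was 0.30, with all 3 arrays above 0. With array 3 as deposited, no direction can be read for Car1 from these arrays. Car3, the form of skeletal muscle and fat, had 0.12, 0.072 and -0.40, a mean of -0.069 ± 0.28 that was 0.095 without array 3 and 0.20 with array 3 turned. Car1 and Car3 shared this pattern of small positive ratios on arrays 1 and 2 and a negative one on array 3.

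Car13, a further cytosolic enzyme, had -0.50, -0.71 and -0.74, a mean of -0.65 ± 0.13 and a ratio of 1.57-fold lower at 11.5 dpc. All 3 arrays lay close together, with the smallest SD of the 9 genes, and no single array carried the value: leaving 1 out gave -0.72 to -0.61. With array 3 turned the mean was -0.16. Car13, Car1, Car3 and Car2 follow each other in this order among the protein-coding genes of mouse chromosome 3 (RefSeq, GRCm38.p6). These adjacent genes had means of -0.65, 0.061, -0.069 and 2.70, so their ratios did not go together along the chromosome.

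The membrane-bound enzymes split in sign. Car4, held on the outer face of the membrane by a lipid anchor, had log2 ratios of -1.10, -3.93 and -1.37. Every array was below -1, and array 2 lay far below the other arrays. Without array 2 the mean was -1.23, which is 1.73 times closer to 0 than with it, so the sign rests on all 3 arrays and the size on array 2. With array 3 turned the mean was -1.22. Car14, a membrane-spanning enzyme of the proximal tubule, had 0.59, 0.61 and 0.084, a mean of 0.43 ± 0.30. Arrays 1 and 2 gave a ratio of about 1.5-fold higher at 11.5 dpc and array 3 a ratio of 1.06-fold. Its mean lay between 0.34 and 0.60 under the 10 alternatives tried, and was 0.37 with array 3 turned. Since all 3 arrays were positive, leaving 1 out or adding a dye term could not turn its sign. Car12, a membrane-spanning enzyme of the collecting duct and other epithelia, had -0.27, 0.45 and -0.55, a mean of -0.13 ± 0.51. Only array 2 was above 0, and the mean was 0.086 without array 3 and 0.24 with array 3 turned.

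Both carbonic anhydrase-related genes in the list had 1 sign on every array, and the signs were opposite. Car8, whose protein lacks enzyme activity and is known for binding the inositol trisphosphate receptor in cerebellar Purkinje cells, had 0.98, 1.32 and 1.20, a mean of 1.17 ± 0.17. The arrays gave ratios of 1.97, 2.50 and 2.30-fold higher at 11.5 dpc, all close to each other. The mean was 1.09 to 1.26 without 1 array and 0.37 with array 3 turned. Car11, another related gene with an inactive product, had -0.25, -0.16 and -1.83, a mean of -0.74 ± 0.94. Arrays 1 and 2 lay just below 0 and array 3 far below it. Without array 3 the mean was -0.20, and with array 3 turned it was 0.47, so the size of the mean of Car11 rests on array 3 and its sign on how that array is read.

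In the order of mean ratio (Car2, Car8, Car14, Car1, Car3, Car12, Car13, Car11, Car4), the values of Car2 did not overlap those of Car8 over the arrays, and those of Car8 did not overlap those of Car14. Each later neighbour in this order overlapped the one before it over the arrays. The log2 ratio reached 1 in size, with the same sign, on all arrays (2-fold or more) for 2 of the 9 genes, Car2 above and Car4 below 0, and for 0.684% of all rows (0.247% positive, 0.436% negative). Car8 missed this rule by array 1, where its log2 ratio was 0.98.

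**Figure D2:**
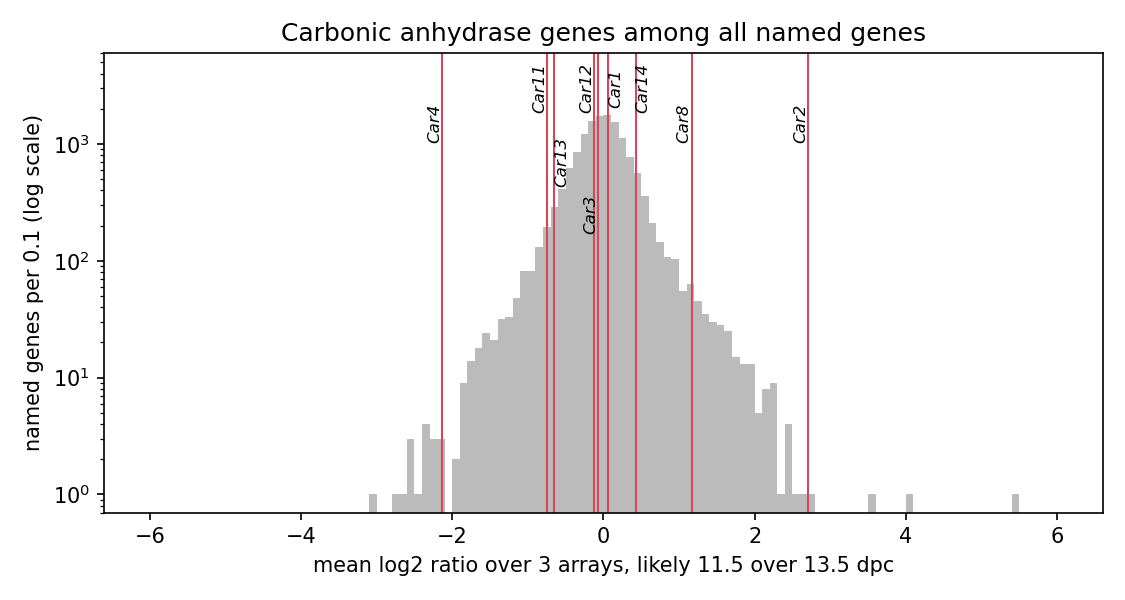
Mean log2 ratio over 3 arrays (likely 11.5 over 13.5 dpc, horizontal axis) of all named genes as a histogram in bins of 0.1, with the number of genes on a log scale, and the 9 carbonic anhydrase genes as red lines. Car2 at 2.70 and Car4 at -2.13 stand in the sparse ends, Car8 at 1.17 in the upper shoulder, and Car1 at 0.061 and Car3 at -0.069 at the centre.

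Array 3 was the only array of its dye order, so an effect of dye order cannot be told apart from other differences of that array. On array 3, 7 of the 9 genes lay below their own mean of arrays 1 and 2, with a median difference of -0.49; Car4 and Car8 lay above it. Over all rows 57.8% lay below, with a median difference of -0.10. In the numbering of the oligonucleotide library, 7 of the 9 features fall within 15 consecutive numbers, 2467 to 2481. The running median of each of the 9 features and the 50 on either side lay between 0.0029 and 0.21 on array 1, between 0.11 and 0.29 on array 2 and between -0.17 and -0.020 on array 3. After it was subtracted, 5 of the 9 genes (55.6%) lay lower on array 3, near the 57.8% of all rows before subtraction. Then 6 genes had 1 sign on every array. The shares of all rows after subtraction were not counted. The part of dye order and of library position in the ratios was not tested further.

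The lists described next share some genes with each other, and none holds any of the 9. Markers of red cells had mostly positive ratios, as Car2 did. Of the 21 erythroid genes with values, 12 were positive on every array and 0 negative, with a median log2 ratio of 0.47. The embryonic beta-like globin gene Hbb-bh1 had 3.13, 5.26 and 3.81, a mean of 4.07 ± 1.09. Ermap, which encodes a red cell membrane protein, had 3.39, 3.80 and 3.34, a mean of 3.51 ± 0.25. All 3 arrays of both genes lay above 3, higher than every array of Car2. Slc4a1, the chloride-bicarbonate exchanger of the red cell membrane that works with Car2, had -0.70, -0.34 and 0.091, and Gata1, a transcription factor of red cell precursors, had -1.54, -0.72 and 0.059; both were picked after their values were seen. The red cell list was therefore not uniform, and Car1 and Slc4a1 did not share the high ratio of Car2. The part of red cell content in the ratio of Car2 was not tested. With array 3 turned the erythroid median was 0.23, 2 of the 21 genes were positive and 3 negative on every array, and the means of Hbb-bh1 and Ermap were 1.53 and 1.28.

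In the test over all rows, limma found 0 of 19015 past an adjusted p of 0.05 (0%), and 1757 (9.24%) had an unadjusted p under 0.05, of which 4.17% of rows were higher and 5.07% lower at 11.5 dpc. No gene of any list below passed the adjusted threshold. Among the 21 erythroid genes 9 were higher and 0 lower at the unadjusted level, against 1 higher and 1 lower with array 3 turned. In that reading of array 3, each of the lists below had at most 1 gene in either direction at this level.

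The genes that carry bicarbonate and protons with the carbonic anhydrases were examined as families. Of 11 measured bicarbonate and chloride transporters of the Slc4 and Slc26 families, 0 were positive and 4 negative on every array, and the median was -0.30 (-0.11 with array 3 turned). At limma's unadjusted level 0 were higher and 2 lower. The anion exchanger gene Slc4a2 had -1.03, -0.40 and -0.69, a mean of -0.71 ± 0.32. The sodium-dependent bicarbonate transporter gene Slc4a8 had -0.37, -0.72 and -0.77, a mean of -0.62 ± 0.22. All 3 arrays of both lay below 0, and they were the lowest of the genes with 1 sign in this list.

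Of 27 measured sodium-proton exchangers of the Slc9 family, their regulators and proton pump subunits, 7 were positive and 2 negative on every array, with a median of 0.041 (0.048 with array 3 turned, 0.0046 without array 2 and 0.12 without array 3) and 2 higher and 1 lower at limma's unadjusted level. The subunits Atp6v1d and Atp6v1b2 of the cytoplasmic part of the vacuolar proton pump headed the list. Atp6v1d had 1.02, 0.90 and 1.27, a mean of 1.06 ± 0.19, and Atp6v1b2, the widely expressed B subunit, had 0.52, 1.08 and 0.71, a mean of 0.77 ± 0.29. Atp6v1b1, the B subunit of acid-secreting kidney cells, was negative on every array with -0.26, -1.29 and -0.18. Slc9a3r2, which encodes a scaffold for the proximal tubule exchanger, had a mean of -0.74 ± 0.28. The 2 forms of the B subunit had opposite signs on all 3 arrays, with array 3 as deposited. Both were named from opposite ends of the genes with 1 sign on every array, so this contrast follows from the pick.

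Of the 6 gas and ammonia channels, 1 was positive and 1 negative on every array, and the median was -0.024. The Rhesus blood group gene Rhd had a mean of 1.64 ± 0.25 and was the 1 gene of this list at limma's unadjusted level, and the water channel gene Aqp5 had -0.27 ± 0.22. The median of this small list was -0.086 and -0.056 without arrays 1 and 2, and positive without array 3 (0.056), after the running median along the library (0.013) and with array 3 turned (0.078).

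The 2 lists for kidney segments where carbonic anhydrases act later, which also hold ureteric bud and early nephron genes, had lower medians than all rows. Of 19 measured genes of intercalated cells and collecting duct, 3 were positive and 4 negative on every array, with a median of -0.30 (-0.050 with array 3 turned, -0.12 without array 1 and -0.13 without array 2) and 0 higher and 2 lower at limma's unadjusted level. Foxi1, the transcription factor of intercalated cells, had 1.05, 0.98 and 0.098, a mean of 0.71 ± 0.53, and Ret, the receptor gene of ureteric bud tips, had 0.30 ± 0.20 (-0.050 with array 3 turned). The sodium channel genes Scnn1b and Scnn1g had -1.35 ± 0.18 and -1.17 ± 0.22. Car12, a collecting duct enzyme, lay between these genes, with no common sign over its arrays.

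Of 16 measured genes of the proximal tubule and early nephron, 1 was positive and 6 negative on every array, with a median of -0.15 (-0.021 with array 3 turned, -0.25 without array 2) and 1 higher and 3 lower at limma's unadjusted level. The brush border peptidase gene Anpep had -0.59, -1.56 and -1.65, a mean of -1.27 ± 0.59, and Wnt4, the signal for nephron epithelium, had -1.02 ± 0.34. The peptidase gene Dpep1 had 0.93, 0.80 and 0.25, a mean of 0.66 ± 0.36. The proximal tubule enzymes Car4 and Car14 had opposite signs. Anpep and Dpep1 were named from opposite ends of their list, so their signs are no parallel to this.

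Markers of muscle, where Car3 is known, had a median of -0.12 over 19 measured genes (0.028 with array 3 turned, -0.042 without array 3), with 3 positive and 4 negative on every array and 1 higher and 3 lower at limma's unadjusted level. The muscle actin genes Acta1 (-2.59, -2.86 and -1.63) and Actc1 (0.52, 0.69 and 0.81) were named from opposite ends of this list. Myl1 had -1.46 ± 0.47 and Tnni1 0.48 ± 0.35. Car3, at -0.069 ± 0.28, lay near the median of this list. The hypoxia list, fixed for Car9, had a median of 0.058 over 21 measured genes (0.021 with array 3 turned; -0.020 and -0.022 without arrays 1 and 2), with 5 positive and 4 negative on every array and 5 higher and 0 lower at the unadjusted level. Its named genes were the glucose transporter gene Slc2a1 (5.44 ± 0.89), Hif1a (1.65 ± 1.13, -0.22 with array 3 turned), Epas1 (-0.43 ± 0.31, 0.090 with array 3 turned) and Adm (-0.96 ± 0.83).

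**Figure D3:**
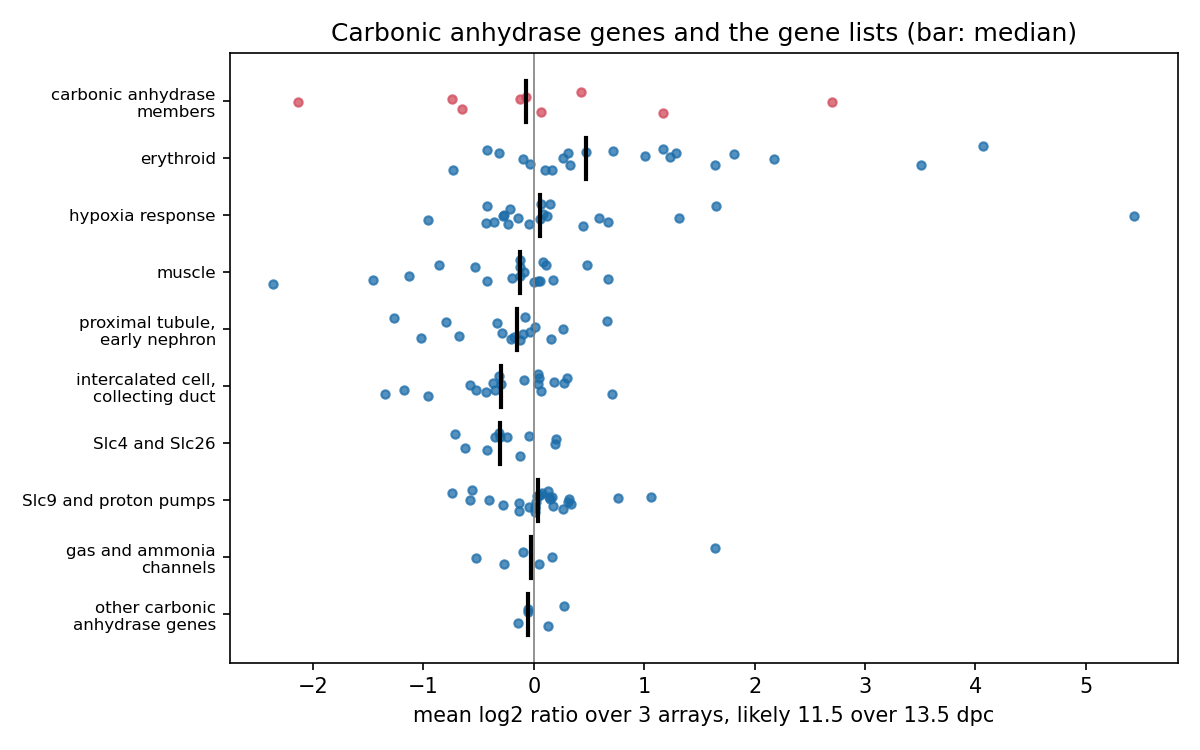
Mean log2 ratio over 3 arrays (likely 11.5 over 13.5 dpc, horizontal axis) of each measured gene, as a point, in the 9 carbonic anhydrase genes (red) and 9 gene lists (blue); black bars are medians and vertical scatter has no meaning. The erythroid median is 0.47, the medians of the Slc4 and Slc26 and collecting duct lists are both -0.30, and the carbonic anhydrase genes spread from -2.13 to 2.70 around a median of -0.069.

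The remaining carbonic anhydrase genes, which are not among the 10, had means between -0.15 and 0.27. Of 6 such genes, 5 had values on all arrays; 0 were of 1 sign on every array, and the median was -0.051. With array 3 turned, 4 of the 5 were positive on every array and the median was 0.18. Without array 3 there were also 4, with a median of 0.24, and without array 2 the median was -0.12. The share of all rows was not counted in these settings, and a common sign is easier to reach over fewer arrays. Car15, a lipid-anchored enzyme, had the highest mean with 0.27 ± 0.27, and the secreted enzyme gene Car6 had 0.13 ± 0.29. The mitochondrial forms Car5a and Car5b had -0.051 ± 0.16 and -0.051 ± 0.25, and the related gene Car10 had -0.15 ± 0.77; with array 3 turned these 3 means were positive (0.093, 0.17 and 0.54). Car7 had no value on any array.

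The named genes whose 3 ratios lay nearest those of Car2, by Euclidean distance over the arrays, were Gfra3, a receptor gene of the GDNF family (distance 0.21 log2 units), Slc22a16 (0.58), Klra2 (0.61), Art5 (0.64) and the prostaglandin receptor gene Ptger3 (0.81). Gfra3 had 2.66, 2.72 and 2.52 on arrays 1, 2 and 3. None of these 5 is in the erythroid list, but that list holds only 21 of the 14433 named genes with values. Its absence from 5 genes therefore says little about Car2. Nearest to Car4 were Lrig1 (0.59), Cst11 (0.75), Prss52 (0.80), the chemokine gene Ccl11 (0.86) and the epithelial keratin gene Krt7 (0.89). Lrig1 had -0.90, -3.65 and -1.85. Their ratios on array 2 lay between -3.83 and -3.15, far below their other arrays, as for Car4. This follows from the way they were picked, by distance to Car4 over these same ratios.

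**Figure D4:**
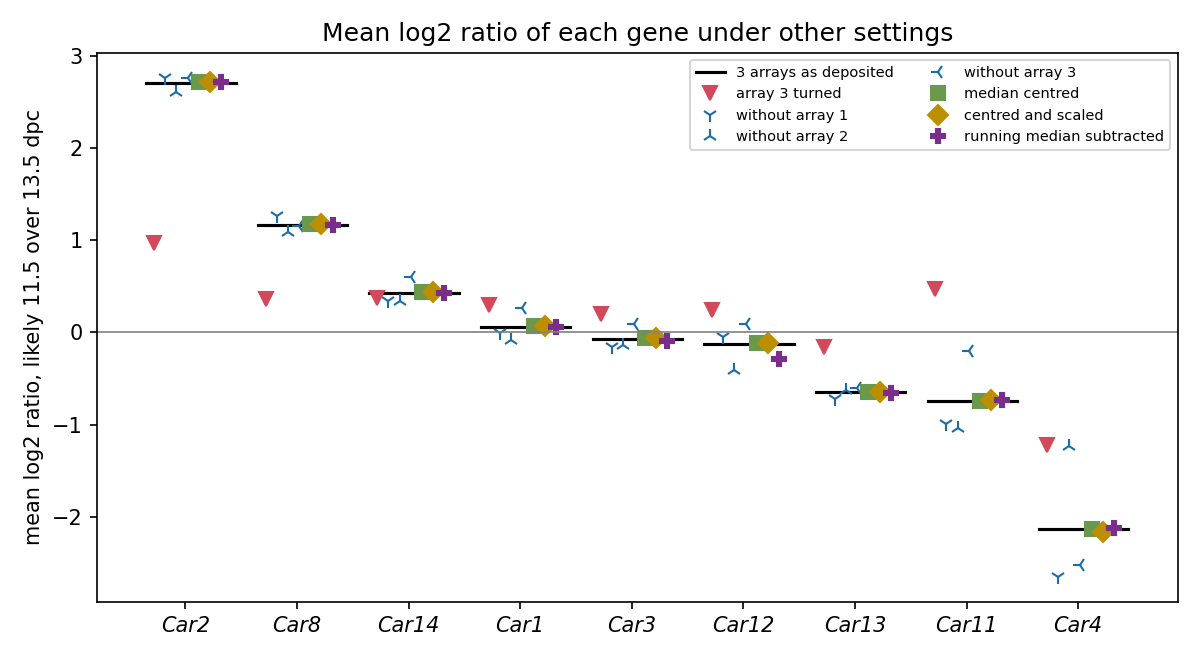
Mean log2 ratio (likely 11.5 over 13.5 dpc, vertical axis) of the 9 carbonic anhydrase genes with the 3 arrays as deposited (black line) and under 7 other settings (symbols). Turning the sign of array 3 moves Car2 to 0.97, Car8 to 0.37 and Car11 to 0.47, leaving out array 2 moves Car4 to -1.23, and the centring settings stay near the black lines.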

How the data were processed

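The authors deposited log2 ratios of the 2 channels for 3 arrays. ImaGene 5.5 read the images, per the labels. The labels describe the normalisation in 2 ways: print-tip loess and a step between arrays in R, or a Lowess fit (20% of the data per point) to adjust a control channel of at least 10. They do not say which of these made the values. Base 2 was checked on the values: 100% gave whole steps of 0.001 (within 0.02 of a step), against 4.42% for e.

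Of 22702 features, 883 controls and blanks were left out. Gene features had to have values on all arrays (20386 did), and those sharing a symbol were averaged, giving 19015 rows, 14433 of them named from the platform annotation. Updating symbols through Entrez identifiers (15970 features matched) renamed 0. The limma package (3.58.1, under R 4.3.3; lmFit, eBayes) compared each mean with 0 in both directions, with Benjamini-Hochberg adjustment, after a check on simulated data. With 3 arrays, 2 residual degrees of freedom remained, which limits the precision.

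From each list the named genes were the 2 highest and the 2 lowest means among genes with 1 sign on every array; the 5 genes nearest the highest and lowest carbonic anhydrase were named too. The genes and lists were chosen with earlier results of these data known. Alternatives left out each array, turned array 3, centred or scaled the arrays, added a dye term, kept features apart, allowed a missing value, and subtracted a running median over 50 library neighbours on either side; the last was chosen after seeing the data.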

Additional observations from a re-analysis of the deposited data

How the results depend on the processing

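No alternative gave a row past the adjusted threshold of limma (0 in each); 736 to 2669 rows had an unadjusted p under 0.05. The 130 rows with a 2-fold or larger ratio of the same sign on all arrays became 42 with array 3 turned, 479 at 1.5-fold and 28 at 3-fold, and numbered 266 to 341 when any single array was dropped. The count was 125 to 161 under the other alternatives. Of the 9 carbonic anhydrase genes, 6 had 1 sign on every array; with array 3 turned there were 2, Car1 and Car3, which had differed in sign before. Without 1 array the count was 6 to 8, and it could not fall below 6, since a gene keeps a common sign when an array is dropped. Over all rows 35.3% had 1 sign on every array as deposited. That share was not counted under the alternatives, so these counts have no background. The mean of Car11 with array 3 turned was 0.47. Of 90 means of single genes under alternatives, 86 moved by less than the SD over the arrays. The other 4, Car11 among them, came with array 3 turned. Much of this count was fixed in advance. Leaving out an array or adding the dye term cannot move a mean by a full SD. Keeping features apart or allowing a missing value left every one of these means as it was. The sign of the mean also changed in 3 alternatives for Car1 and 2 each for Car3 and Car12, genes with no common sign over the arrays. Each gene has 1 feature, so keeping features apart changed no mean. Spot intensities were not used here, so no ratio can be weighed by its signal.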

Other observations

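Taking all 14 carbonic anhydrase genes with values, the 9 described and the 5 others, 12 lay lower on array 3 than on the mean of arrays 1 and 2, with a median difference of -0.44, while 57.8% of all rows did. The pattern was noticed in the data, many of these features have neighbouring numbers in the library, and the single array of that dye order leaves it without replication.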
